A study of Homo sapiens with 48 samples.

Results

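The 6 arrays described here measured gene expression in HK-2 cells exposed to the compound called Ra in the labels, for 48 h (3 arrays) or for 12 h (3 arrays). They were chosen by their titles, out of 48 arrays in the series, to see which of the changes that cells in culture undergo between 12 h and 48 h also took place under Ra. HK-2 cells are an immortalised human line from the epithelium of the proximal tubule of the kidney. All groups were seeded 24 h ahead of treatment in 6-well plates, treated near confluence, and kept in a DMEM and F12 medium with growth factor EGF, hydrocortisone, insulin, transferrin and selenite added. The groups used are Ra 48 h, Ra 12 h, Fk 48 h, Fk 12 h, and the vehicle controls that Ra and Fk share, at 48 h and 12 h, with 3 biological replicates each. A second vehicle pair, run for the compound CsA and labelled with a laboratory number that the other arrays lack, gave a further list of time-dependent genes. Full compound names, doses and the vehicle used were not stated in the labels. Labels do not say whether replicates came from separate cultures, so p-values measure the spread between these samples.

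The labelled cell type was only partly visible in its markers. In the 12 Ra and vehicle arrays, 2 of 11 proximal tubule markers on the array, PAX8 and DPP4, lay above log2 4 in all 12 arrays, while the apical transporter and receptor genes SLC34A1, LRP2, CUBN and AQP1 lay below it in all 12. All 10 epithelial markers were above it in at least 3 of these arrays, against 0 of 9 leukocyte, 4 of 10 fibroblast, 3 of 10 endothelial and 2 of 10 markers of other nephron segments on the array. Ra 48 h replicate 2 stood apart from the other 17 arrays of the Fk and Ra set: its median over expressed genes was 7.47 on the deposited log2 scale, against 8.17 to 8.34 in the others. Each array was centred on its median over the 11356 genes tested, and many results that rest on this array are given with and without it. The ACTB 3′ minus 5′ log2 difference, a sign of RNA integrity, was 1.02 to 1.32 in Ra 48 h arrays, 1.04 to 1.10 in Ra 12 h arrays, 1.08 to 1.36 in vehicle 48 h arrays and 0.971 to 1.13 in vehicle 12 h arrays.

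Cells that fill a dish and use up their medium are known to slow their cell cycle and to turn on stress programmes. In the integrated stress response, kinases that sense lack of amino acids, heme or protein folding capacity phosphorylate the initiation factor eIF2, general translation drops, and the transcription factor ATF4 and its partner CHOP (DDIT3) are made. ATF4 induces genes of amino acid supply, among them transporters, biosynthetic enzymes and aminoacyl-tRNA synthetases, while the unfolded protein response raises chaperones of the endoplasmic reticulum. Genes of S phase are driven by E2F factors and those of mitosis through the CHR element of their promoters, and both sets decline when cells leave the cycle.

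Under Ra, few of the changes that vehicle cells showed with time in culture were called. With limma, 87 of 11356 genes differed between Ra 48 h and Ra 12 h at an adjusted p under 0.05, which is 0.766% of those tested, 41 higher (0.361%) and 46 lower (0.405%) at 48 h. Before centring, 7 were higher and 133 lower, with 51 of the 87 among them, and a fit of the Ra arrays alone called 0 (1598 at an unadjusted p under 0.05 by limma). Between vehicle 48 h and vehicle 12 h, 2626 genes differed (23.1%), 1293 higher and 1333 lower. The fit uses 1 spread per gene for all groups, so the standard error of a change is the same in both comparisons, with a median of 0.244 log2 units. It therefore does not show the larger spread of the Ra 48 h arrays given below. The median absolute change was 0.228 under Ra and 0.34 under vehicle. In bulk RNA, fewer cells of a kind and less RNA per cell cannot be told apart. Without Ra 48 h replicate 2, 12 genes were called for Ra, 10 of them among the 87. The count was 152 without Ra 48 h replicate 1, 290 without Ra 48 h replicate 3, and 10, 21 and 40 without Ra 12 h replicates 1, 2 and 3, so every one of the 6 arrays moved it by more than 1.5 times. Over all genes the 48 h Ra arrays were also the most variable, with a median SD of 0.29 log2 units per gene, against 0.139 at Ra 12 h, 0.226 at vehicle 48 h and 0.135 at vehicle 12 h.

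Whether the change with time itself differed was tested as the Ra change minus the vehicle change. This difference was called for 344 genes (3.03%), 148 positive (1.3%) and 196 negative (1.73%), with a median standard error of 0.345. Of the 2626 genes called under vehicle, 310 had a called difference, and in all 310 the Ra change was displaced against the vehicle direction. Because vehicle arrays enter both counts, a gene with a large vehicle change by chance also tends to have a large difference. A further 32 genes were called under Ra in the direction of vehicle with no called difference, which is 1.22% of the vehicle calls and 36.8% of the Ra calls. The remaining 2284 vehicle-called genes (87%) were called neither under Ra nor in the difference, so for them these arrays do not settle whether the change remained. No gene was called in opposite directions in the Ra and vehicle comparisons. Without Ra 48 h replicate 2, 90 differences were called, 86 of them among the 344. The count was 921 and 154 without Ra 48 h replicates 1 and 3, then 88, 138 and 223 without Ra 12 h replicates 1, 2 and 3. It was 83, 87 and 960 without vehicle 48 h replicates 1, 2 and 3, and 210, 111 and 115 without vehicle 12 h replicates 1, 2 and 3. In every one of these 12 fits, 58 genes were called, 20 positive and 38 negative.

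**Figure D1:**
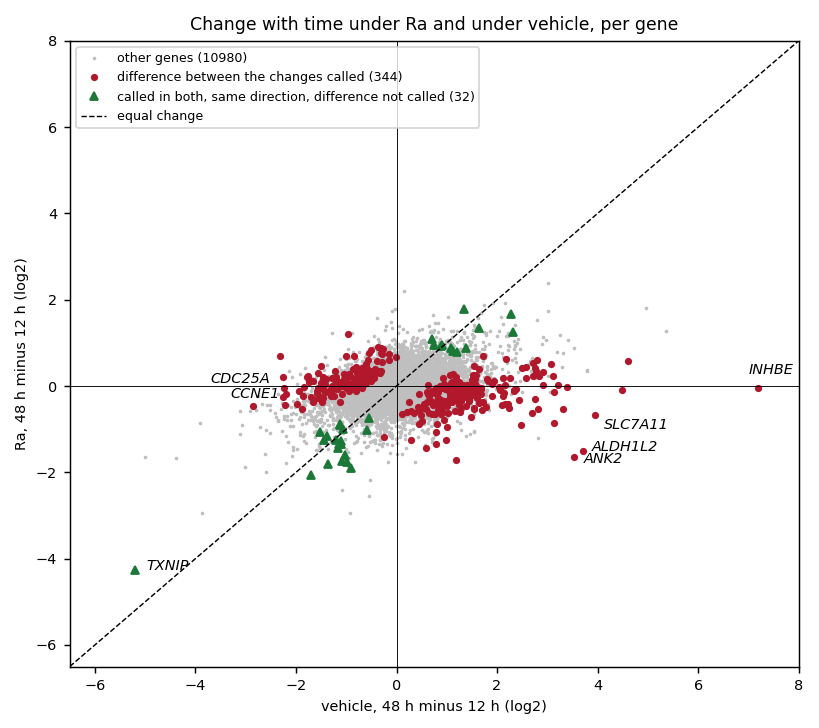
Each point is 1 of 11356 genes, with its vehicle change from 12 h to 48 h on the x axis and its Ra change on the y axis, both in log2 units; red circles are the 344 genes with a called difference between the changes and green triangles the 32 genes called in both comparisons with no called difference. Most red points lie near 0 on the Ra axis while spread along the vehicle axis, and TXNIP lies near the dashed line of equal change.

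A list of time-dependent genes was also taken from arrays whose means enter neither comparison. These arrays do enter the spread per gene that all groups share in the fit. The called counts below are therefore not independent of them, while the medians do not use that spread. In the CsA-set vehicle arrays, 429 genes were higher at 48 h by at least 1 log2 unit with no overlap between the 3 and 3 arrays, and 387 were lower. The 429 genes had a median change of 0.161 under Ra, 1.18 under Fk and 1.32 under the vehicle of the Fk and Ra set, and the 387 had medians of -0.276 under Ra, -1.27 under Fk and -1.24 under vehicle. Under Ra, 278 of the 429 were above 0 (64.8%), against 57.4% of all genes, and 305 of the 387 were below 0 (78.8%), against 42.6% of all genes. Under vehicle, 426 and 381 had the sign of the list. Of the 429, 1 was called as higher under Ra and 329 under vehicle, against 0.361% and 11.4% of all genes. Of the 387, 6 were called as lower under Ra and 289 under vehicle, against 0.405% and 11.7% of all genes. The 1 call among the 429 is thus no more than the share of all genes. Each Ra 48 h array was at a different distance from its 12 h group: the median over the 429 genes was 0.416, 0.106 and -0.0665 in Ra 48 h replicates 1, 2 and 3, against 1.74, 1.44 and 0.873 in vehicle 48 h replicates 1, 2 and 3. The Ra and vehicle arrays did not overlap on this measure, and replicate 1 of Ra lay nearest to the vehicle arrays.

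**Figure D2:**
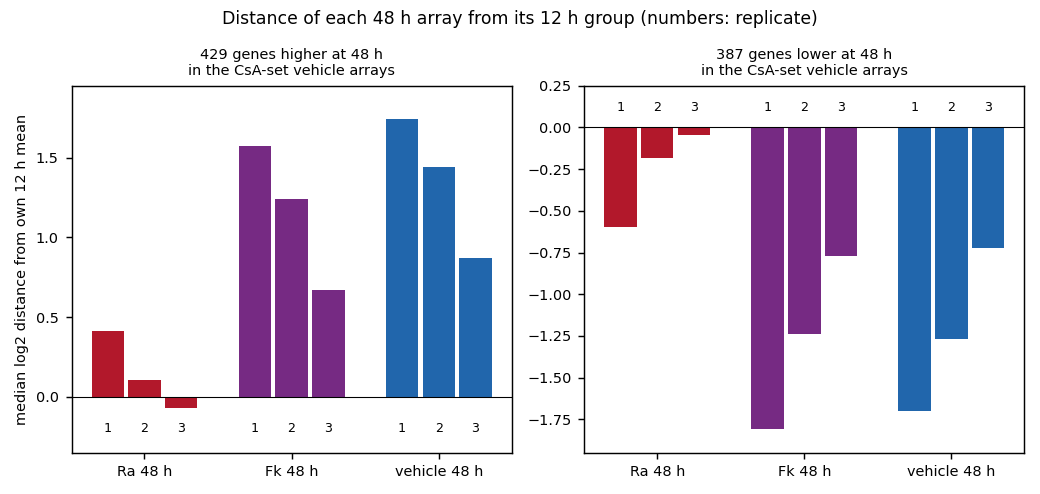
Bars give, for each 48 h array of Ra, Fk and vehicle, the median log2 distance from the mean of its own 12 h group, over the 429 genes that were higher (left) and the 387 that were lower (right) at 48 h in the CsA-set vehicle arrays. The 3 Ra bars run from -0.0665 to 0.416 on the left and from -0.597 to -0.0448 on the right, and every Fk and vehicle bar is longer.

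Targets of ATF4 and CHOP formed a group whose rise under vehicle was smaller under Ra. The gene lists were chosen with earlier results of these data known. Counts set beside the shares of all genes therefore describe a list and are no test of it. Of 32 genes on the list, 31 were measured. Under vehicle 27 rose and 1 fell, against 11.4% and 11.7% of all genes. Under Ra 0 rose or fell by limma, which is near the 0.766% of all genes called. At an unadjusted p under 0.05, 2 were higher and 1 lower under Ra, against 14% of all genes in either direction. In the difference, 11 were negative and 0 positive, against 1.73% and 1.3% of all genes. Unadjusted it was 20 and 0, against 20.4% of all genes in either direction. With 1 of the 12 arrays left out, the negative count ran from 6 to 12. It was lowest without Ra 48 h replicate 2 and highest without Ra 48 h replicate 1. Without Ra 48 h replicate 3, 1 gene of the list rose under Ra. STC2, a list member named after its values were seen, changed by 2.39 under Ra (SE 0.723, adjusted p = 0.113, limma). It rose by 3.02 under vehicle (adjusted p = 0.00256), with a difference of -0.62 (SE 1.02, adjusted p = 0.774). For this gene the arrays do not settle whether the rise remained. The median change over the 31 was 0.125 log2 units under Ra (-0.131 on the values before centring, 0.274 without Ra 48 h replicate 2) and 1.94 under vehicle, beside 0.0579 and -0.00203 over all genes. The vehicle 48 h and 12 h arrays did not overlap for 31 of the 31 genes, against 47.1% of all genes, and the Ra 48 h and 12 h arrays did not overlap for 4 of the 31, against 21.9% of all genes. Replicates of Ra differed here too: the list's median distance from the Ra 12 h mean was 0.688, 0.0965 and -0.344 in Ra 48 h replicates 1, 2 and 3, against 1.74, 2.12 and 1.54 in vehicle 48 h replicates 1, 2 and 3.

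INHBE, which encodes an activin subunit and is a strong target of the ATF4 pathway, had the largest difference of all genes named. It stood at 9.56, 4.12 and 2.70 centred log2 units in the Ra 48 h arrays, against 5.69, 4.39 and 6.44 in the Ra 12 h arrays. In vehicle it stood at 12.24, 11.84 and 11.44 at 48 h, against 5.91, 3.37 and 4.69 at 12 h. The Ra groups overlapped with 1 Ra 48 h array far above the other two, while all vehicle 48 h arrays were above all other arrays. The change was -0.05 under Ra and 7.18 under vehicle (adjusted p = 3.16e-06), a difference of -7.23 (SE 1.32, adjusted p = 0.00315, limma; 0.0173 without Ra 48 h replicate 2).

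ASNS, asparagine synthetase, had 10.45, 8.77 and 8.41 in Ra 48 h arrays, against 10.48, 9.22 and 10.53 in Ra 12 h arrays. Its vehicle levels were 12.36, 12.56 and 11.71 at 48 h, against 9.35, 8.34 and 9.54 at 12 h. The Ra times overlapped and the vehicle times did not, and the difference was -4.00 (SE 0.838, adjusted p = 0.00759, or 0.032 without Ra 48 h replicate 2). SLC7A11, the cystine importer that feeds glutathione synthesis, had 9.95, 7.29 and 6.50 in Ra 48 h arrays, against 9.22, 7.35 and 9.18 in Ra 12 h arrays. Vehicle arrays held 11.35, 11.50 and 11.28 at 48 h, against 7.94, 6.49 and 7.86 at 12 h. The Ra times again overlapped, and the difference was -4.62 (SE 1.01, adjusted p = 0.0105, or 0.0442 without that replicate). CTH, which makes cysteine from cystathionine, had 10.87, 7.08 and 6.60 in Ra 48 h arrays, against 8.51, 7.95 and 8.37 in Ra 12 h arrays, so that its 48 h arrays lay on both sides of the 12 h ones. Its difference was -4.57 (SE 1.02, adjusted p = 0.0126; 0.06 without Ra 48 h replicate 2). ALDH1L2, a mitochondrial folate enzyme, differed by -5.22 (adjusted p = 0.000743; 0.00403 without that replicate), and SESN2, a stress-induced leucine sensor that also answers to p53, by -2.07 (adjusted p = 0.0342; 0.138 without it).

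DDIT3 itself, the gene for CHOP, did not settle. It had 11.95, 10.20 and 8.42 in Ra 48 h arrays, against 8.60, 8.0 and 8.53 in Ra 12 h arrays, and 13.88, 13.73 and 12.69 in vehicle 48 h arrays, against 8.63, 8.34 and 8.46 in vehicle 12 h arrays. The Ra 48 h array at 8.42 was within the 12 h range, and those at 11.95 and 10.20 were above it. All 3 were below every vehicle 48 h array. The change was 1.81 under Ra (SE 0.766, adjusted p = 0.287) and 4.95 under vehicle (adjusted p = 2.66e-05), and the difference of -3.14 missed the threshold (SE 1.08, adjusted p = 0.0926). GDF15, a secreted stress cytokine, changed by 1.01 under Ra (adjusted p = 0.536) and rose by 2.39 under vehicle (adjusted p = 0.0104), with a difference of -1.38 (SE 0.968, adjusted p = 0.436).

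**Figure D3:**
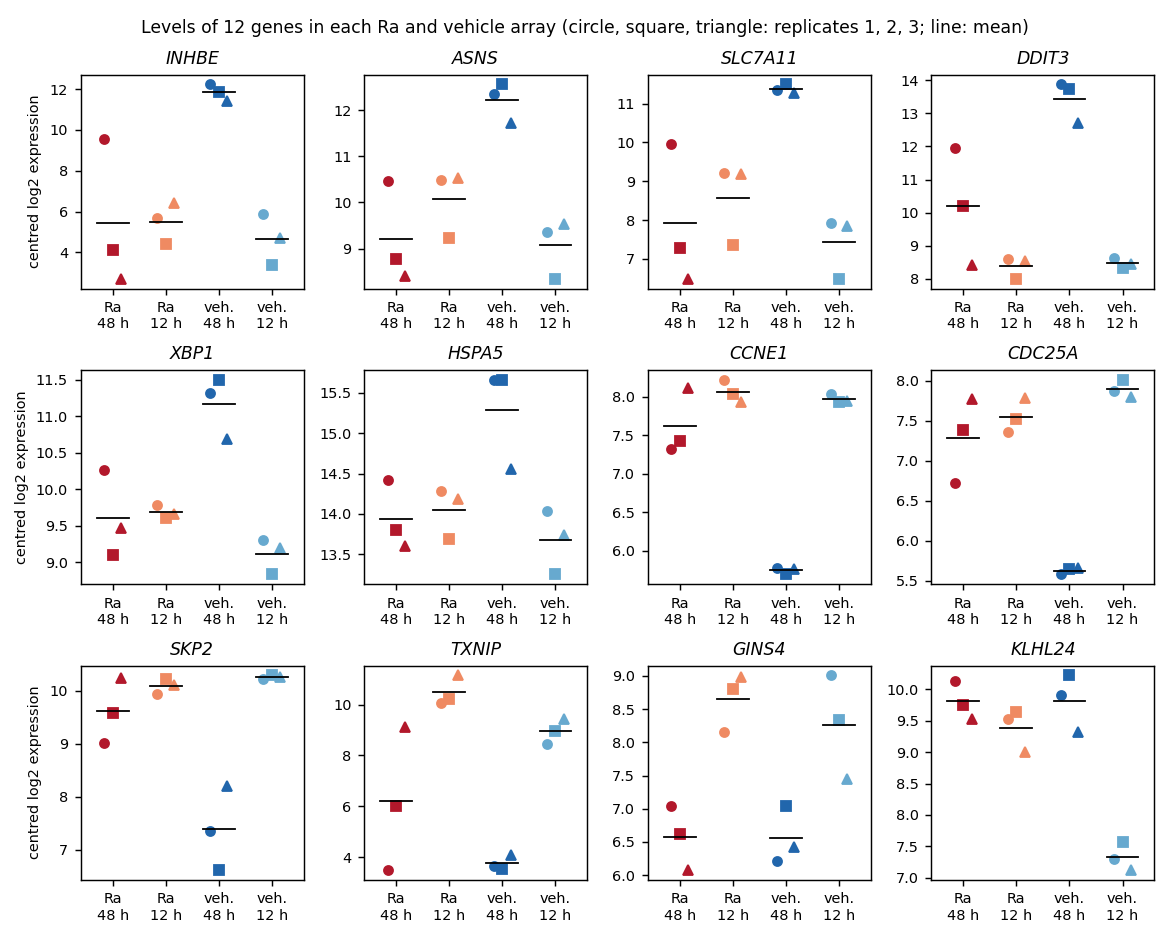
Each panel shows 1 gene, with centred log2 expression on the y axis and the Ra 48 h, Ra 12 h, vehicle 48 h and vehicle 12 h arrays along the x axis; circles, squares and triangles are replicates 1, 2 and 3, and lines are group means. In INHBE, ASNS and SLC7A11 all vehicle 48 h arrays lie above all Ra arrays, in CCNE1 and CDC25A all vehicle 48 h arrays lie below all others, and in TXNIP and GINS4 the 48 h arrays lie below the 12 h arrays under both Ra and vehicle.

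The synthetases that charge tRNAs with amino acids, many of them targets of ATF4, also rose under vehicle and were not called under Ra. Of 20 cytosolic aminoacyl-tRNA synthetase genes, 17 were measured. Under vehicle 10 rose and 1 fell, against 11.4% and 11.7% of all genes. Under Ra 0 did, which is near the 0.766% of all genes called. At an unadjusted p under 0.05, 0 changed under Ra, against 14% of all genes. Their median change was 0.00325 under Ra (-0.252 before centring) and 0.649 under vehicle. A negative difference was called for 5, against 1.73% of all genes. It was called for 1 without Ra 48 h replicate 2, for 10 without vehicle 48 h replicate 3 and for 9 before centring. AARS1, the alanyl-tRNA synthetase, had 10.40, 9.34 and 9.47 in Ra 48 h arrays, against 10.06, 9.48 and 9.98 in Ra 12 h arrays. It had 12.16, 11.67 and 10.88 in vehicle 48 h arrays, against 9.54, 9.36 and 9.65 in vehicle 12 h arrays. The Ra times overlapped, and the difference was -2.16 (SE 0.438, adjusted p = 0.00572; 0.0292 without Ra 48 h replicate 2). The synthetases for cysteine, glycine and tryptophan, CARS1, GARS1 and WARS1, had differences of -1.74, -1.76 and -2.03 (adjusted p = 0.0122, 0.0342 and 0.0282), and each lost the call without that replicate (0.0516, 0.0935 and 0.0751). Among 16 measured amino acid transporter genes, 8 rose and 2 fell under vehicle, and 0 did under Ra (2 higher at an unadjusted p under 0.05). The shares of all genes given above apply here too, and 0 calls under Ra is again near them. A negative difference was called for 2, SLC7A11 and SLC38A9, a lysosomal arginine sensor (-0.81, adjusted p = 0.0356, or 0.112 without Ra 48 h replicate 2). Without Ra 48 h replicate 2 this count was 1, and without vehicle 48 h replicate 3 it was 3.

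Promoters of these genes were searched for the composite element that C/EBP and ATF factors are known to bind, TGATGNAA on either strand. In RefSeq promoters of GRCh38.p14, taken from 250 bases before to 50 bases after the gene start, it occurred in 6 of 24 promoters of the ATF4 and CHOP list (25%) and in 6 of 14 promoters of the tRNA synthetase list (42.9%). It occurred in 2.79% of the 9370 tested genes with a promoter in the table, and in 12 of 159 genes with a negative difference (7.55%). It also occurred in 58 of 1081 genes called as risen under vehicle (5.37%) and in 5 of 130 genes with a positive difference (3.85%). Whether these shares differ was not tested. A match is a description of letters and not a shown binding site. The matches in the 4 members of both lists that also had a called difference are shown, each with 20 bases on both sides, on the strand of the gene, with the element (or its reverse complement) in capitals. ASNS lies at chr7:97872449-97872496, AARS1 at chr16:70289666-70289713, CARS1 at chr11:3057398-3057445 and GARS1 at chr7:30594825-30594872.
ASNS: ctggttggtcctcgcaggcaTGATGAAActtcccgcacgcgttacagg
AARS1: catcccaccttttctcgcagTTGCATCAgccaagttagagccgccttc
CARS1: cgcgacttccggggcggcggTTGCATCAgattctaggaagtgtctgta
GARS1: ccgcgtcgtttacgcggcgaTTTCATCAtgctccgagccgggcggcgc

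Chaperones and degradation factors of the endoplasmic reticulum formed a further group with a smaller change under Ra. Of 28 measured genes, 17 rose and 0 fell under vehicle, against 11.4% and 11.7% of all genes. Under Ra 0 rose or fell by limma, which is near the 0.766% of all genes called. At an unadjusted p under 0.05, 1 was higher under Ra, against 14% of all genes in either direction. A negative difference was called for 5, against 1.73% of all genes. It was called for 1 without Ra 48 h replicate 2 and for 17 without vehicle 48 h replicate 3. The median change was 0.0192 under Ra (-0.236 before centring) and 1.29 under vehicle. By array, the list's median distance from the 12 h mean was 0.108, 0.0499 and -0.119 in Ra 48 h replicates 1, 2 and 3, against 1.96, 1.37 and 0.149 in vehicle 48 h replicates 1, 2 and 3, so that vehicle replicate 3 lay close to the Ra arrays; without vehicle 48 h replicate 1, 8 genes rose under vehicle, and without replicate 3, 25. XBP1, the transcription factor spliced by IRE1, had 10.26, 9.10 and 9.47 in Ra 48 h arrays, against 9.78, 9.61 and 9.66 in Ra 12 h arrays, and 11.32, 11.50 and 10.68 in vehicle 48 h arrays, against 9.30, 8.83 and 9.20 in vehicle 12 h arrays. All vehicle 48 h arrays were above all Ra arrays, and the difference was -2.13 (SE 0.343, adjusted p = 0.000743; 0.00546 without that replicate). HSPA5, the chaperone BiP, had 14.41, 13.80 and 13.60 in Ra 48 h arrays, against 14.28, 13.69 and 14.18 in Ra 12 h arrays, and 15.66, 15.66 and 14.56 in vehicle 48 h arrays, against 14.04, 13.25 and 13.74 in vehicle 12 h arrays. Its Ra times overlapped, and the difference of -1.73 (adjusted p = 0.0204) lost the call without Ra 48 h replicate 2 (0.0616). The same held for the co-chaperone DNAJB9 (-2.88, adjusted p = 0.0224 and 0.0794), the degradation factor HERPUD1 (-2.56, 0.0277 and 0.0921) and CREB3L2, a membrane-bound transcription factor (-2.19, 0.0244 and 0.0797).

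Genes of the cell cycle fell under vehicle, and 1 of them did under Ra. Of 39 measured genes of DNA replication and S phase, 33 fell and 0 rose under vehicle, against 11.7% and 11.4% of all genes. Under Ra 1 fell, against 0.405% of all genes. At an unadjusted p under 0.05, 4 were lower under Ra, against 14% of all genes in either direction. A positive difference was called for 5, against 1.3% of all genes, and 31 were positive unadjusted, against 20.4% of all genes in either direction. It was called for 2 without Ra 48 h replicate 2 or before centring, and for 24 without vehicle 48 h replicate 3. The median change was -0.143 under Ra (-0.398 before centring, -0.275 without Ra 48 h replicate 2) and -1.21 under vehicle. Of 32 genes of G2 and mitosis, 29 fell under vehicle, and 0 fell under Ra, which is near the 0.405% of all genes. At an unadjusted p under 0.05, 0 were lower under Ra. The medians were -0.072 under Ra (-0.327 before centring) and -1.22 under vehicle. In this list 1 positive difference was called (23 unadjusted), so the called share is not far from the 1.3% of all genes. The count was 0 without Ra 48 h replicate 2 or before centring, and 14 without vehicle 48 h replicate 3. Without vehicle 48 h replicate 1, 10 mitosis genes fell under vehicle. For most single genes of these lists the difference was thus not called. Replicate 1 of Ra 48 h had the lowest median over the replication list, -0.575, against 0.11 and 0.013 in replicates 2 and 3, and -1.74, -1.23 and -0.73 in vehicle 48 h replicates 1, 2 and 3.

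CCNE1, cyclin E1, which starts S phase with CDK2, had 7.31, 7.42 and 8.11 in Ra 48 h arrays, against 8.22, 8.04 and 7.93 in Ra 12 h arrays. It had 5.78, 5.69 and 5.76 in vehicle 48 h arrays, against 8.03, 7.92 and 7.94 in vehicle 12 h arrays. All vehicle 48 h arrays were below every Ra array, and the difference was 1.77 (SE 0.347, adjusted p = 0.00533; 0.00965 without Ra 48 h replicate 2). CDC25A, the phosphatase that activates CDK2 and CDK1, had 6.72, 7.38 and 7.77 in Ra 48 h arrays, against 7.35, 7.52 and 7.78 in Ra 12 h arrays. It had 5.58, 5.64 and 5.66 in vehicle 48 h arrays, against 7.88, 8.01 and 7.79 in vehicle 12 h arrays. The Ra times overlapped, and the difference was 2.00 (SE 0.318, adjusted p = 0.000743; 0.00403 without that replicate). SPC24, a kinetochore subunit, differed by 1.98 (adjusted p = 0.00533; 0.0272 without it).

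SKP2, the ubiquitin ligase subunit that degrades the CDK inhibitor p27, had 9.02, 9.59 and 10.25 in Ra 48 h arrays, against 9.93, 10.21 and 10.12 in Ra 12 h arrays. It had 7.35, 6.62 and 8.20 in vehicle 48 h arrays, against 10.21, 10.29 and 10.25 in vehicle 12 h arrays. Vehicle 48 h arrays were below all Ra arrays, and the difference was 2.39 (SE 0.549, adjusted p = 0.0148; 0.04 without Ra 48 h replicate 2). The histone chaperone ASF1B (2.00, adjusted p = 0.0343), cyclin F (CCNF; 1.99, 0.0271), cyclin D3 (CCND3; 1.11, 0.0461), the helicase subunit GINS1 (1.56, 0.0376), the separase inhibitor PTTG1 (1.41, 0.0352) and lamin B2 (LMNB2; 1.97, 0.0235) also had a positive difference. All 6 missed the threshold without Ra 48 h replicate 2, with adjusted p between 0.0564 for LMNB2 and 0.143 for GINS1. MKI67, the proliferation marker, had 10.81, 11.58 and 11.14 in Ra 48 h arrays, against 10.83, 11.16 and 10.81 in Ra 12 h arrays, and 9.14, 9.77 and 10.55 in vehicle 48 h arrays, against 11.29, 11.20 and 11.04 in vehicle 12 h arrays. Its vehicle times did not overlap and its Ra times did, but the difference of 1.60 missed the threshold (SE 0.549, adjusted p = 0.0907). Of the promoters of the mitosis list, 18 of 26 (69.2%) hold the CHR letters TTTGAA on either strand, against 13.6% of tested genes. Of the replication list, 7 of 35 promoters (20%) hold the E2F letters TTTGGCGC, against 1.32%. Among genes called as fallen under vehicle, the shares were 18.6% for TTTGAA and 2.59% for TTTGGCGC.

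**Figure D4:**
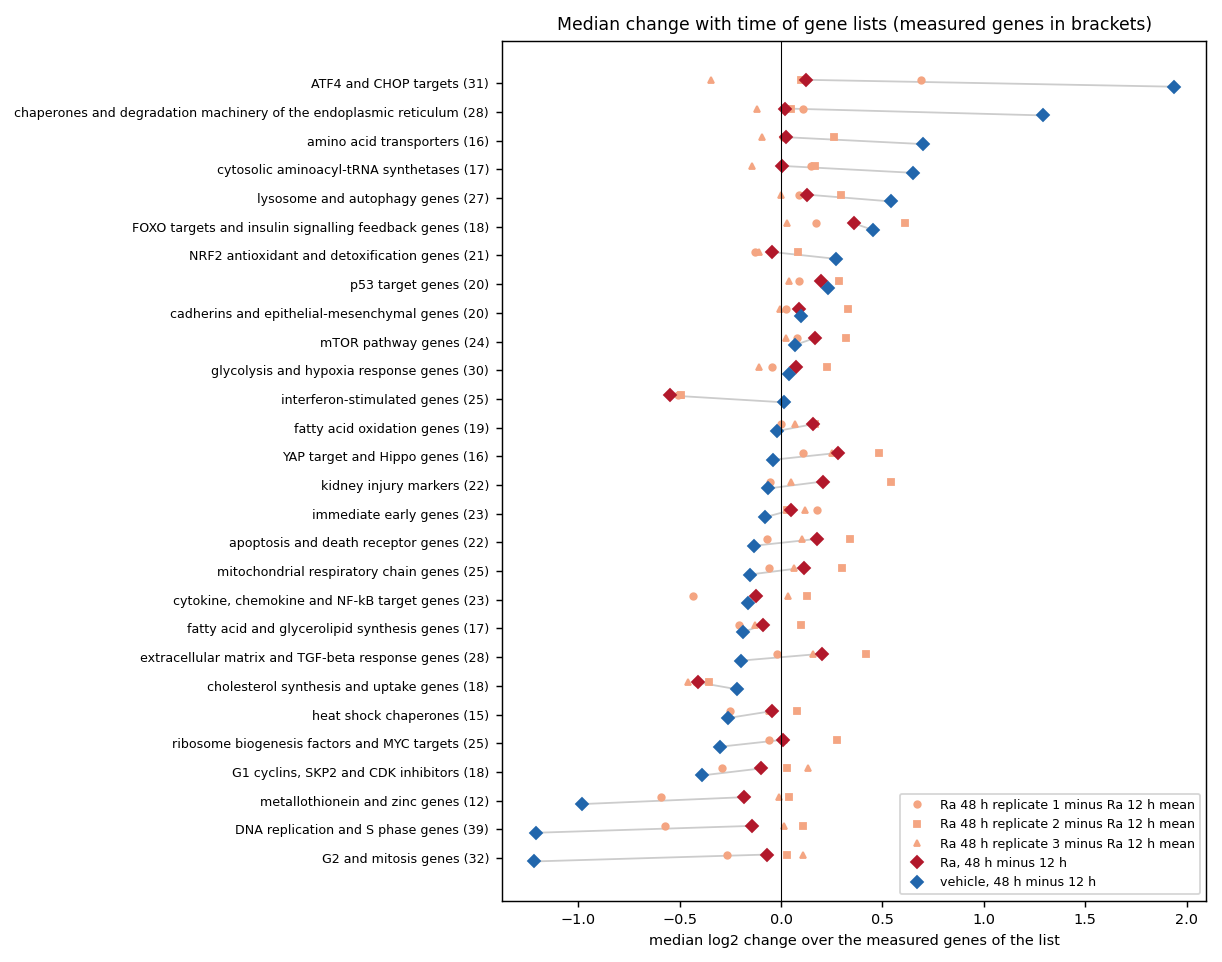
Diamonds give the median log2 change from 12 h to 48 h over the measured genes of each list with 10 or more measured genes, red for Ra and blue for vehicle; small symbols give the 3 Ra 48 h arrays, each minus the Ra 12 h mean. The ATF4 and CHOP targets are at 0.125 under Ra and 1.94 under vehicle, the mitosis genes at -0.072 and -1.22, and most other lists have medians near 0 under both.

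Few changes were called under both Ra and vehicle with no called difference, and among these TXNIP had by far the largest. TXNIP, an arrestin-like protein that binds thioredoxin and limits glucose uptake, had 3.50, 6.02 and 9.12 in Ra 48 h arrays, against 10.05, 10.23 and 11.15 in Ra 12 h arrays. It had 3.65, 3.54 and 4.07 in vehicle 48 h arrays, against 8.46, 8.96 and 9.43 in vehicle 12 h arrays. Times did not overlap under either, although the Ra 48 h arrays were widely spread and 1 of them lay among the vehicle 12 h levels. It fell by 4.26 under Ra (SE 0.76, adjusted p = 0.00392; 0.0369 without Ra 48 h replicate 2) and by 5.20 under vehicle (adjusted p = 1.44e-05), with a difference of 0.93 (SE 1.07, adjusted p = 0.667). Levels under log2 4 are at the filter, so the size of the vehicle fall is a rough one.

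Of these 32 genes, 12 rose and 20 fell. Before centring, 37 genes met the same rule, 17 of them among the 32. With the Fk and Ra set fitted alone it was 21, with 13 among the 32, and with only the Ra and vehicle groups fitted 44, with 18 among the 32. Leaving out Ra 48 h replicate 2 kept 5 of the 32, and without Ra 12 h replicates 1, 2 and 3 there were 7, 11 and 16 such genes, against 20 and 113 without Ra 48 h replicates 1 and 3. Leaving out any vehicle array left the count between 23 and 34. Only TXNIP and ITGB2-AS1, a long noncoding RNA gene named after its values were seen, were called in both time comparisons in every fit that left out 1 of the 12 arrays. ITGB2-AS1 fell by 1.59 under Ra (adjusted p = 0.000584) and by 1.03 under vehicle (adjusted p = 0.00245).

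Among the rises, SLC39A11, a zinc transporter of the ZIP family, ranked first by the smaller of its Ra and vehicle changes. It had 7.28, 6.99 and 7.17 in Ra 48 h arrays, against 5.17, 5.24 and 6.04 in Ra 12 h arrays, and 7.93, 7.10 and 7.72 in vehicle 48 h arrays, against 5.55, 5.30 and 5.07 in vehicle 12 h arrays. Neither pair of times overlapped, and it rose by 1.67 under Ra (SE 0.333, adjusted p = 0.0111; 0.0481 without Ra 48 h replicate 2) and by 2.28 under vehicle. The ADP-ribose hydrolase MACROD1 (1.78), LRMDA (1.34), the syntrophin SNTB1 (1.25), RILPL1 (1.09), SCMH1 (0.96), TRAK1 (0.95), BOD1 (0.92), the sulfate transporter SLC26A11 (0.88) and the integrin ligand EDIL3 (0.88) rose under Ra with adjusted p between 0.0111 and 0.0477, and rose by 0.71 to 2.31 under vehicle. TRAK1 links mitochondria to kinesin motors, and BOD1 is needed for chromosome alignment in mitosis. None of these 9 passed without Ra 48 h replicate 2.

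Among the falls, GINS4, a subunit of the GINS complex of the replicative helicase, had 7.04, 6.62 and 6.08 in Ra 48 h arrays, against 8.16, 8.80 and 8.98 in Ra 12 h arrays. It had 6.21, 7.03 and 6.43 in vehicle 48 h arrays, against 9.01, 8.34 and 7.45 in vehicle 12 h arrays. The times did not overlap in either, and it fell by 2.07 under Ra (SE 0.436, adjusted p = 0.0158; 0.0883 without Ra 48 h replicate 2) and by 1.71 under vehicle. It was the 1 gene of the replication list that fell under Ra. TP53I3, a p53-induced quinone oxidoreductase, had 7.37, 6.99 and 7.70 in Ra 48 h arrays, against 8.66, 8.56 and 8.59 in Ra 12 h arrays, and 7.35, 7.62 and 7.38 in vehicle 48 h arrays, against 8.78, 8.56 and 8.59 in vehicle 12 h arrays. The levels of both treatments nearly coincided at each time, and the fall was 1.25 under Ra (adjusted p = 0.00292; 0.0522 without that replicate) and 1.20 under vehicle (adjusted p = 0.000165), with a difference of -0.05 (SE 0.306, adjusted p = 0.946). LXN, latexin, an inhibitor of carboxypeptidases, fell by 1.91 under Ra (adjusted p = 0.00153; 0.0369 without it) and by 0.90 under vehicle. LHFPL6 (-1.81), LOC389831 (-1.43), LRRC34 (-1.33), the interleukin receptor gene IL7R (-1.25) and SLC66A3 (-1.17) fell under Ra with adjusted p between 0.0177 and 0.0494, none of them without Ra 48 h replicate 2. The other probe set of LHFPL6 had the opposite sign under Ra. IL7R lay at 5.00 or below in all 12 arrays, close to the filter.

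Interferon-stimulated genes had the lowest median of the lists under Ra, and without Ra 48 h replicate 2 the cholesterol genes did. Over 25 measured interferon genes the median was -0.549 (-0.401 without that replicate, against -0.441 for cholesterol genes), and it was 0.014 under vehicle. The 3 Ra 48 h arrays were close together at -0.509, -0.496 and -0.493 from the Ra 12 h mean. By the test, 2 genes fell under Ra, against 0.405% of all genes, and 10 at an unadjusted p under 0.05, against 14% in either direction. The called count was 0 without Ra 48 h replicate 2, 3 without Ra 48 h replicate 3 and 5 before centring. Under vehicle 4 fell, against 11.7% of all genes, and 1 without vehicle 48 h replicate 1. IFI44, an interferon-induced cytoplasmic protein, had 6.46, 5.70 and 6.13 in Ra 48 h arrays, against 7.81, 8.38 and 7.39 in Ra 12 h arrays, and 4.04, 5.19 and 6.27 in vehicle 48 h arrays, against 6.86, 6.20 and 5.38 in vehicle 12 h arrays. IFIT1, which binds RNA that lacks a self cap, had 8.50, 7.87 and 8.73 in Ra 48 h arrays, against 10.16, 10.78 and 9.34 in Ra 12 h arrays, and 7.37, 7.50 and 8.50 in vehicle 48 h arrays, against 9.33, 9.22 and 8.05 in vehicle 12 h arrays. For both genes the Ra times did not overlap and the vehicle times did. They fell by 1.76 and 1.73 under Ra (adjusted p = 0.014 and 0.0271) and by 0.98 and 1.08 under vehicle (adjusted p = 0.0487 and 0.0493). IFIT2, of the same family, was the 1 member with a called difference (-2.03, SE 0.574, adjusted p = 0.0449; 0.117 without that replicate): it changed by -1.44 under Ra (adjusted p = 0.0802) and by 0.59 under vehicle (adjusted p = 0.321). Without vehicle 48 h replicate 3, 3 interferon genes had a negative difference, and without Ra 48 h replicate 1, 2 had a positive one. Ra 12 h arrays held 9.56, 10.21 and 8.88 log2 units of IFIT2, against 8.02, 7.74 and 6.60 in vehicle 12 h arrays.

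Of the 87 genes called under Ra, 55 were not called under vehicle, 11 of them with a called difference and 44 without, and 71 of the 87 had the sign of vehicle. CYYR1, a cysteine- and tyrosine-rich membrane protein, showed the largest rise. It had 7.22, 7.27 and 4.56 in Ra 48 h arrays, against 4.02, 4.32 and 4.11 in Ra 12 h arrays, and 3.97 to 4.36 in vehicle 48 h arrays, against 3.92 to 4.05 in vehicle 12 h arrays. It was raised well above the filter in 2 of 3 Ra 48 h arrays, with a change of 2.20 (adjusted p = 0.0292; 0.319 without Ra 48 h replicate 2) and a difference from vehicle of 2.04 (adjusted p = 0.106). ASB5, an adaptor of ubiquitin ligases, had 2.91, 3.89 and 3.29 in Ra 48 h arrays, against 7.53, 7.30 and 4.07 in Ra 12 h arrays, so that 1 Ra 12 h array lay near the 48 h ones. It fell by 2.94 (adjusted p = 0.0086; 0.0274 without that replicate), with a difference from vehicle of -2.02 (adjusted p = 0.143).

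TRMT2B, a mitochondrial tRNA methyltransferase, changed by -2.56 under Ra (adjusted p = 0.0154), with 6.29, 4.74 and 3.15 in Ra 48 h arrays, against 7.15, 7.19 and 7.51 in Ra 12 h arrays. MTHFD2L, a mitochondrial folate enzyme, changed by -2.19 (adjusted p = 0.00748), but its 2 other probe sets had the opposite sign. The noncoding RNA gene GLIDR (-1.58), MAP3K7CL (-1.86), the collagen chain gene COL1A1 (-1.33) and CASP8, the initiator caspase of death receptors (-0.63), also fell. Of the 2 other probe sets of GLIDR, 1 had the opposite sign under Ra. COL1A1 is 1 of 10 fibroblast markers, whose mean level ran from 4.92 to 5.18 in Ra 48 h arrays, 5.15 to 5.24 in Ra 12 h arrays, 5.11 to 5.41 in vehicle 48 h arrays and 5.04 to 5.13 in vehicle 12 h arrays, and their part in its change was not tested. LRRC61 (1.32), the trafficking gene SCFD2 (1.26), the mitotic phosphatase CDC25B (1.00) and AGAP1, a regulator of small GTPases (0.96), rose. Of these 10 genes only CASP8 passed without Ra 48 h replicate 2 (adjusted p = 0.0481), and 0 of the 10 had a called difference from vehicle. In every fit that left out 1 of the 6 Ra arrays, 7 genes were called: TXNIP, LXN, ITGB2-AS1, FAIM, FLVCR1-DT, NPAS1 and ZNF667-AS1, of which those after LXN are named after their values were seen.

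For some genes Ra and vehicle cells already differed at 12 h. Over the 178 vehicle-risen genes with a called difference, Ra minus vehicle was 0.399 in median at 12 h and -1.08 at 48 h, and for 25 of them the gap was larger at 12 h. Over the 132 vehicle-fallen ones it was -0.247 at 12 h and 0.84 at 48 h, with 16 larger at 12 h. KLHL24, a ubiquitin ligase adaptor that FOXO factors are known to induce, is the clearest named case. It had 10.13, 9.76 and 9.53 in Ra 48 h arrays, against 9.52, 9.64 and 9.00 in Ra 12 h arrays, and 9.91, 10.22 and 9.32 in vehicle 48 h arrays, against 7.29, 7.58 and 7.12 in vehicle 12 h arrays. Both 48 h groups overlapped, and the vehicle 12 h arrays were below all others. Ra minus vehicle was 2.06 at 12 h and -0.01 at 48 h, and the difference between changes was -2.07 (SE 0.412, adjusted p = 0.00533; 0.022 without Ra 48 h replicate 2). 3 of its 4 other probe sets had the opposite sign of change under Ra. PLA1A, a phosphatidylserine phospholipase, and ANK2, ankyrin-B, had Ra minus vehicle values of 1.71 and 1.46 at 12 h and of -2.31 and -3.73 at 48 h. ANK2 had 6.59, 4.56 and 5.15 in Ra 48 h arrays, against 7.39, 6.93 and 6.95 in Ra 12 h arrays, and 9.28, 9.72 and 8.49 in vehicle 48 h arrays, against 5.91, 5.06 and 5.91 in vehicle 12 h arrays. Its difference of -5.19 (SE 0.623, adjusted p = 8.25e-06) had the lowest adjusted p of the genes named, and PLA1A differed by -4.02 (adjusted p = 0.0209). Without Ra 48 h replicate 2 the adjusted p was 0.000115 for ANK2 and 0.0292 for PLA1A. The 1 other probe set of ANK2, and the 2 others of ALDH1L2, had a Ra change of the opposite sign. So did every other probe set of CTH, XBP1, CREB3L2, CCNF, EIF4EBP2, SLFN13 and ERO1B. Some other probe sets of SLC7A11, DNAJB9, CARS1, CDC25A, FNIP1, MKI67 and CLU did too. None of these genes had a called Ra change, and for several it was near 0, as for XBP1 (-0.07) and SLFN13 (0.01). Other probe sets were compared by the sign of the Ra change only, and not by the difference from vehicle or Fk.

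Other genes with a large negative difference were BEX2, a small adaptor protein (-3.85, adjusted p = 0.000581; 0.00403 without Ra 48 h replicate 2), HRK, a BH3-only activator of apoptosis (-3.42, 0.0201; 0.0433), and ATOSA (-3.39, 0.0208; 0.0734). HRK lay at or below 4.19 in all Ra arrays and between 5.06 and 6.93 in vehicle 48 h arrays. On the positive side, the tetraspanin-like genes TM4SF4 (3.03, adjusted p = 0.0349; 0.088) and TM4SF18 (2.18, 0.0105; 0.0376), the GPI-anchored LYPD1 (2.17, 0.0323; 0.063) and SESTD1 (1.88, 0.0339; 0.0519) differed. LYPD1 changed by 1.21 under Ra and by -0.96 under vehicle, and neither change was called by itself (adjusted p = 0.149 and 0.0799).

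In other lists, time under Ra gave few or no calls. No gene of the mTOR (24), lysosome and autophagy (27), cholesterol (18), metallothionein (12), heat shock (15), NRF2 (21), YAP (16), respiratory chain (25) or kidney injury (22) lists rose or fell under Ra by limma, where numbers in brackets are measured genes; of these 179 different genes, 14 were higher and 12 lower at an unadjusted p under 0.05, which is 14.5% of them and close to the 14% of all genes. With 0.766% of all genes called under Ra, 0 calls over these lists is also near the background. Under vehicle, 5 mTOR genes rose and 3 fell, 10 lysosome genes rose and 1 fell, 4 metallothionein genes fell and 1 rose, and 6 heat shock genes fell and 1 rose. Over all genes, 11.4% rose and 11.7% fell under vehicle. EIF4EBP1, an inhibitor of cap-dependent translation and an ATF4 target, had a difference of -1.39 (adjusted p = 0.0342), its relative EIF4EBP2 one of 0.92 (0.0184) and the TORC1 regulator FNIP1 one of -0.83 (0.0481). GABARAPL1, which coats autophagosomes, differed by -1.49 (0.0244), the pyruvate dehydrogenase kinase PDK1 by -1.15 (0.0242), the sterol enzyme HSD17B7 by -1.27 (0.0204), malic enzyme ME1 by -0.92 (0.0278), the co-chaperone DNAJA1 by 0.76 (0.0431), the nucleolar methyltransferase FBL by 0.81 (0.0388), the death receptor FAS by 1.09 (0.0342) and the decoy receptor TNFRSF10C by 0.99 (0.026). All 11 missed the threshold without Ra 48 h replicate 2, with adjusted p from 0.0614 to 0.129.

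Genes used as markers of kidney injury and growth arrest were not called under Ra. HAVCR1, kidney injury molecule 1, had 10.09, 10.61 and 10.08 in Ra 48 h arrays, against 10.41, 10.76 and 10.93 in Ra 12 h arrays, a change of -0.44 (SE 0.388, adjusted p = 0.664), with a difference from vehicle of 0.04 (SE 0.548). CLU, clusterin, changed by 0.23 (SE 0.284, adjusted p = 0.776), and LCN2, neutrophil gelatinase-associated lipocalin, lay near the filter in Ra arrays, at 3.21 to 4.52. CDKN1A, the CDK inhibitor p21, changed by 0.58 under Ra (SE 0.416, adjusted p = 0.57) and rose by 1.20 under vehicle (adjusted p = 0.0337), with a difference of -0.62 (SE 0.588, adjusted p = 0.586). HMGCS1, which starts sterol synthesis, changed by -0.79 under Ra (adjusted p = 0.352) and fell by 1.21 under vehicle (adjusted p = 0.0204).

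Fk, the other compound with the same vehicle, served to see whether a small time change also came with it. The Ra change minus the Fk change was called for 158 genes (1.39%), 87 positive (0.766%) and 71 negative (0.625%). Without Ra 48 h replicate 2, 9 were called, all 9 among the 158, and the genes named below are given from the full fit only. It was 728 and 68 without Ra 48 h replicates 1 and 3, and 16, 50 and 46 without Ra 12 h replicates 1, 2 and 3. Leaving out Fk 48 h replicates 1, 2 and 3 gave 26, 89 and 660, and leaving out Fk 12 h replicates 1, 2 and 3 gave 238, 210 and 131. Of the 131 without Fk 12 h replicate 3, 76 were among the 158. That array had correlations of 0.9481 and 0.9517 with the other Fk 12 h arrays, against 0.9935 between those. CDC25A and MCM10, a replication initiation factor, fell by 2.49 and 3.78 under Fk, and differed by 2.23 and 2.68 (adjusted p = 0.000196 and 0.0428). CCNE2, cyclin E2, and SLFN13, a tRNA-cleaving enzyme, differed by 2.27 and 2.33 (adjusted p = 0.0407 and 0.0253). ANK2, ERO1B, an oxidase of the endoplasmic reticulum, ALDH1L2 and BEX2 had negative differences from Fk of -4.39, -4.03, -3.91 and -3.55 (adjusted p = 0.000196, 0.0478, 0.0155 and 0.00136). Labels give no dose of Ra or Fk, so these values compare the treatments as applied.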

How the data were processed

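RNA from 48 samples was hybridised as biotin-labelled cRNA to 1 single-colour array each. Values as deposited are on a log2 scale for 54675 probe sets, made by the authors with GCRMA per the submitters' processing notes, which give no version; they ran from 0.721 to 16.11. From these values, 62 control probe sets and 1801 with several symbols were left out, and 11721 not listed in the platform annotation were not used. Of 41091 probe sets with 1 symbol, 41037 were found in the RefSeq gene table (GRCh38.p14), and 0 symbols changed. Probe sets above log2 4 in at least 3 arrays were kept (20960), and the one of highest mean stood for each of 11356 genes, of which 5660 had more than 1. GCRMA normalizes between arrays; each array was further centred on its median over these genes, so changes are relative to that median.

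One mean per group was fitted over all 48 arrays and 16 groups with limma 3.58.1 (lmFit, eBayes; R 4.3.3, statmod 1.5.0), two-sided, with Benjamini-Hochberg adjustment over all genes and a threshold of 0.05. The fit was tested on simulated data. With 3 arrays a group, the number of arrays limits the precision. The members and the gene lists were chosen with earlier results of these data known. Genes named are the 10 largest rises and falls for the Ra comparison and for the difference from vehicle (higher group mean at least log2 6), the 8 largest each way among shared changes, the 4 largest each way for the difference from Fk, up to 4 called members per list, and 14 genes always given. Alternatives were no centring, quantile normalization, other filters, the mean of probe sets, fewer arrays in the fit, a replicate block, a trended robust variance, array weights and leaving out each array. Replicate numbers were not used to pair the samples in the main fit. Over the groups of the Fk and Ra set, 19 of 45 same-numbered pairs had a correlation of deviations above 0.1. Their mean correlation was 0.1 (from -0.18 to 0.76), against -0.051 for other pairs. What same-numbered samples share is not stated in the labels. Labels name a laboratory for the CsA arrays only and no other batch. Sequences come from the RefSeq promoter table.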

Additional observations from a re-analysis of the deposited data

Results flagged for a closer look

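A change with time that differed between Ra and vehicle by the interaction test was found for 344 genes, and one that differed between Ra and Fk for 158 genes. Of the genes named, 48 differed from vehicle, 16 of them also without Ra 48 h replicate 2. In every fit that left out 1 of the 12 Ra and vehicle arrays 12 passed: INHBE (-7.23), ALDH1L2 (-5.22), ANK2 (-5.19), SLC7A11 (-4.62), ASNS (-4.00), BEX2 (-3.85), AARS1 (-2.16), XBP1 (-2.13), KLHL24 (-2.07), CCNE1 (1.77), SPC24 (1.98) and CDC25A (2.00), where values are the Ra change minus the vehicle change in log2 units.

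The other 36 lost the call when at least 1 array was left out. Among genes of amino acid and cysteine supply, protein folding and stress, the Ra change was below the vehicle change for CTH (-4.57), DNAJB9 (-2.88), HERPUD1 (-2.56), CREB3L2 (-2.19), SESN2 (-2.07), WARS1 (-2.03), GARS1 (-1.76), CARS1 (-1.74), HSPA5 (-1.73), EIF4EBP1 (-1.39) and SLC38A9 (-0.81). The same direction held for PLA1A (-4.02), HRK (-3.42), ATOSA (-3.39), IFIT2 (-2.03), GABARAPL1 (-1.49), HSD17B7 (-1.27), PDK1 (-1.15), ME1 (-0.92) and FNIP1 (-0.83). Among genes of the cell cycle the Ra change was above the vehicle change for SKP2 (2.39), ASF1B (2.00), CCNF (1.99), LMNB2 (1.97), GINS1 (1.56), PTTG1 (1.41) and CCND3 (1.11). It was also above for TM4SF4 (3.03), TM4SF18 (2.18), LYPD1 (2.17), SESTD1 (1.88), FAS (1.09), TNFRSF10C (0.99), EIF4EBP2 (0.92), FBL (0.81) and DNAJA1 (0.76).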

How the results depend on the processing

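For genes named by the rule above, no called Ra change, vehicle change or difference from vehicle turned its direction under any alternative. The difference from Fk was not checked gene by gene. For the 33 named genes called under Ra, 200 of 526 values under the alternatives lost the call (38%), and for the 48 with a called difference from vehicle, 331 of 1055 did (31.4%). Among named genes not called, the Ra change gained a call 15 times and moved by more than the replicate SD without one 25 times, and the difference 57 and 28 times. The number of calls did move. For Ra 48 h against 12 h, the 87 calls (41 higher, 46 lower) became 140 on the uncentred values (7 higher, 133 lower, 51 of them among the 87), where the median change of all genes was -0.198 under Ra and 0.0162 under vehicle, against 0.0579 and -0.00203 after centring. They became 40 with the Fk and Ra set alone, 397 with array weights and 0 when only the Ra arrays were fitted (1598 at an unadjusted p under 0.05 by limma, lowest adjusted p 0.13). The difference from vehicle gave 76 with the Fk and Ra set alone and 3597 with array weights. Uncentred it gave 411, split as 35 positive and 376 negative, against 148 and 196. The difference from Fk gave 94 without a filter, 18 with the set alone, 0 with only its own groups (1715 unadjusted), 2165 with array weights and, uncentred, 9 positive and 135 negative, against 87 and 71. The shared changes numbered 21 with the set alone and 162 with array weights, and the vehicle comparison gave 5971 with array weights. With a replicate block the counts were 533 for Ra, 1516 for the difference from vehicle, 1185 for that from Fk and 242 shared. Same-numbered arrays of the Fk and Ra set had a mean correlation of deviations of 0.1, against -0.051 for others. What the replicate numbers stand for is not stated in the labels. Leaving out 1 array gave 10 to 290 calls for Ra, 1438 to 2879 for vehicle, 83 to 960 for the difference from vehicle, 9 to 728 for that from Fk and 5 to 113 shared. Fewer arrays in the fit leave fewer degrees of freedom, which was not tested as a cause, nor were others. With only its own groups fitted, the vehicle comparison gave 3164 calls, against 2626 in the main fit. The difference from vehicle then gave 348, against 344. Signals near log2 4 limit the size of changes of dim genes.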
